A study of Rattus norvegicus with 8 samples.

Results

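The 4 transcripts described here encode the invariant chain, Cd74, and 3 chains of the rat major histocompatibility complex (MHC) class II molecules, RT1-Da, RT1-Db1 and RT1-Ba. They were taken as the rows of the count table with 4 given Ensembl identifiers, ENSRNOG00000018735 (Cd74), ENSRNOG00000032844 (RT1-Da), ENSRNOG00000032708 (RT1-Db1) and ENSRNOG00000000451 (RT1-Ba). All 4 were among the 26404 genes in the table, and all 4 were among the 14240 that passed the low-count filter. The table carries identifiers only, and the names came with the list of 4. They could not be checked against the reference table used here, in which 0 entries hold an Ensembl rat identifier. The doubt is greatest for ENSRNOG00000032708, listed as RT1-Db1, which may instead be RT1-Bb, the beta chain of the B molecule. It is called RT1-Db1 here as listed, and which of the molecules its counts belong to was not settled.

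Class II molecules are pairs of an alpha and a beta chain that display peptides from taken-up protein to CD4+ T cells. The invariant chain binds new pairs in the endoplasmic reticulum, fills their groove and leads them to the endosome, where it is cut away and peptide is loaded. These genes are known mainly from dendritic cells, among them the Langerhans cells and dermal dendritic cells of skin, and from macrophages and B cells. Their shared transcription depends on the co-activator CIITA.

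All animals were Sprague-Dawley rats of 125 to 200 g under urethane anaesthesia. In the burn group, 1 hind paw was immersed to the ankle in saline at 60 °C for 2 min, a model of deep partial-thickness burn, and for the control group the opposite paw was put in saline at room temperature. Skin of the dorsal paw at the microdialysis probe sites gave 4 burn and 4 control libraries of poly(A)-enriched RNA. Both groups thus share the probe and the anaesthetic. The sources used here do not give age, sex, the time from burn to excision or the animal behind each library, and no paw could be matched to its partner. Nothing says that the 4 libraries of a group are from 4 animals, and p-values then measure only the spread between these samples, which may be technical.

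Burn libraries held 13693811 to 18738652 counts and control libraries 17824830 to 26837925, the fewest of the controls in replicate 3. Burn replicate 3 stood apart, with counts for 15354 genes, where each of the other 7 libraries had counts for 17322 to 17547, and the levels, ratios and correlations that it moves most are given with and without it. Markers that would check the skin and its immune cells, and the other genes of the class II pathway, were not analysed here because their identifiers could not be matched to names. In whole tissue, fewer cells of a type and less RNA per cell cannot be told apart.

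The promoters of these genes are shown because class II promoters are known for a shared pair of elements. These are an X box bound by RFX proteins and a Y box bound by NF-Y. Whether they bear on the levels measured here was not tested. Sequences are from RefSeq on the GRCr8 build, matched to all 4 genes by symbol. They read 5′ to 3′ on the strand of the gene, with GCAAC, the core of the X box, and CTGATTGG, a Y box, in capitals. For the 3 class II genes the 150 bases before the outermost annotated start are given, at chr20:4515243-4515392 on the plus strand for RT1-Da, chr20:4560183-4560332 on the minus strand for RT1-Db1 and chr20:4576907-4577056 on the plus strand for RT1-Ba. For Cd74 only the 30 bases around its GCAAC are given, at chr18:56527124-56527153 on the plus strand. They lie before the start that the promoter table uses but inside the annotated gene, which begins further upstream.
RT1-Da: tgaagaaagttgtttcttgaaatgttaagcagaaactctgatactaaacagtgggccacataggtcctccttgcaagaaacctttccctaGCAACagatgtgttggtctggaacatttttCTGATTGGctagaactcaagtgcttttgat
RT1-Db1: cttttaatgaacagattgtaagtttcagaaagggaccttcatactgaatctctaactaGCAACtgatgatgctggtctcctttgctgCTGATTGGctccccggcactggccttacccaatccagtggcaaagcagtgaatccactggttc
RT1-Ba: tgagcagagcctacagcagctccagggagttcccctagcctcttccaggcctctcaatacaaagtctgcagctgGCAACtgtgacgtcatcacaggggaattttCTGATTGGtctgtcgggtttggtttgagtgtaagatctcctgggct
Cd74: agttccacattaGCAACgtgggcggagtga

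In the 3 class II promoters GCAAC was followed on the same strand by CTGATTGG, with 25 bases between them in RT1-Da, 24 in RT1-Db1 and 25 in RT1-Ba. Cd74 had GCAAC on the strand of the gene and, in its 300-base window, ATTGG on the opposite strand only, but no CTGATTGG on either strand. Both strands of 33469 promoter windows of 300 bases were searched, 250 before the start and 50 after. GCAAC was present in 35.1% of them, ATTGG, which is contained in CTGATTGG, in 37.5%, and CTGATTGG itself in 3.50%. GCAAC followed on the same strand by 15 to 30 bases and then ATTGG, a spacing set after the class II promoters had been read, was present in 0.666%. Of 9 genes with a window, Cd74 and class II loci of a preset list, 6 held that arrangement, RT1-Da, RT1-Db1, RT1-Db2, RT1-Ba, RT1-DOa and RT1-DOb, and RT1-Bb, RT1-DMa and Cd74 did not. If the row listed as RT1-Db1 is RT1-Bb, the RT1-Db1 sequence shown is not the promoter of the transcript counted. The RT1-Bb window held CTGATTGG but no GCAAC. A match of letters does not show that a factor binds.

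All 4 transcripts were lower in burned skin. Their fitted levels in burn were 30.5% to 36.8% of those in control, and for each gene the 4 burn libraries lay below the 4 control libraries. All 4 were called lower in burn by the edgeR quasi-likelihood test, at an adjusted p under 0.05. Among the 14240 genes tested, 1426 or 10.0% were called lower and 1689 or 11.9% higher, and for 15.6% all burn values lay below all control values. The median log2 fold change was -1.67 over the 4 genes and 0.06 over all genes tested. Levels are CPM, counts scaled to a common library total, with TMM factors, a trimmed mean of ratios between libraries. They are not corrected for transcript length, so levels are compared between libraries and not between genes.

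**Figure D1:**
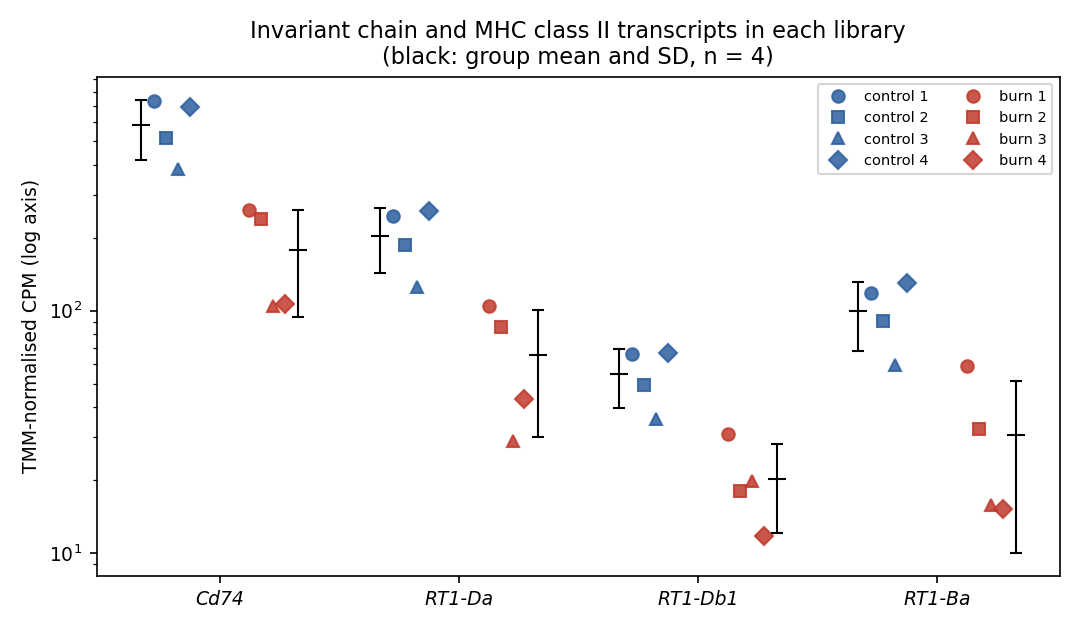
TMM-normalised CPM, on a log axis, of the 4 transcripts in each library, blue for control and red for burn, with a marker shape for each replicate number, which pairs nothing, and the group mean and SD (n = 4) in black. Burn values lie below control values for each gene, and for RT1-Ba the highest burn library, at 59.2 CPM, almost touches the lowest control library, at 59.4.

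Cd74, the chaperone of all class II pairs, stood at 730.0, 515.8, 382.1 and 693.7 CPM in control replicates 1 to 4 and at 259.5, 237.8, 104.5 and 106.5 CPM in burn replicates 1 to 4. The lowest control library was 1.47 times the highest burn library, and the burn libraries formed a higher and a lower pair. The means were 580.4 ± 162.0 CPM in control and 177.1 ± 83.1 in burn (SD, n = 4). Cd74 fell 3.28-fold, a log2 fold change of -1.71 with an SE of 0.37 (adjusted p = 0.0156 by edgeR). This transcript was abundant in counts, with only 312 of the genes tested having a higher mean log2 CPM, not corrected for transcript length.

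RT1-Da encodes the alpha chain of the D molecule, the counterpart of human HLA-DR. It stood at 244.7, 186.9, 125.2 and 257.1 CPM in control replicates 1 to 4 and at 104.2, 85.3, 29.1 and 43.0 CPM in burn replicates 1 to 4. Burn replicate 3 was the lowest of all libraries, and control replicate 3 the lowest of its group, 1.20 times the highest burn library. The means were 203.5 ± 60.5 CPM in control and 65.4 ± 35.2 in burn (SD, n = 4). RT1-Da fell 3.11-fold, a log2 fold change of -1.64 with an SE of 0.42 (adjusted p = 0.0255 by edgeR). Without burn replicate 4 or control replicate 1, 2 or 4 it did not pass the edgeR threshold, with adjusted p of 0.0578, 0.0679, 0.0640 and 0.0692.

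RT1-Db1 encodes a beta chain of the D molecule, the partner of RT1-Da, if the listed name holds, and if the row is RT1-Bb it encodes the partner of RT1-Ba. It stood at 66.3, 49.1, 35.8 and 67.0 CPM in control replicates 1 to 4 and at 30.9, 18.0, 19.8 and 11.8 CPM in burn replicates 1 to 4. Burn replicate 4 was the lowest library, as it was for RT1-Ba. Burn replicate 3 was second among the burn libraries, where for the other 3 genes it was among the lower pair. The means were 54.6 CPM in control and 20.1 in burn, with an SD of 27.5% and 39.6% of the mean (n = 4). RT1-Db1 fell 2.72-fold, a log2 fold change of -1.44 with an SE of 0.32 (adjusted p = 0.0163 by edgeR). It had the fewest counts of the 4, 196 to 377 in a burn library, and counting error alone gives a coefficient of variation of 7.14% at 196 counts. A second gene of the D beta chain, RT1-Db2, lies near it in the reference, and the sources used here do not say how reads were divided between such copies, which makes this level uncertain.

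RT1-Ba encodes the alpha chain of the B molecule, the counterpart of human HLA-DQ. It stood at 117.6, 90.7, 59.4 and 129.8 CPM in control replicates 1 to 4 and at 59.2, 32.4, 15.7 and 15.2 CPM in burn replicates 1 to 4. The groups did not overlap but were separated by a ratio of only 1.00 between the lowest control and the highest burn library. The means were 99.4 ± 31.2 CPM in control and 30.7 ± 20.7 in burn (SD, n = 4). RT1-Ba fell 3.25-fold, a log2 fold change of -1.70 with an SE of 0.46 (adjusted p = 0.0323 by edgeR). Its call was lost without burn replicate 4 or control replicate 1, 2 or 4, with edgeR adjusted p of 0.0619, 0.0792, 0.0738 and 0.0833. Without burn replicate 1, the library nearest the controls, its log2 fold change was -2.24.

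**Figure D2:**
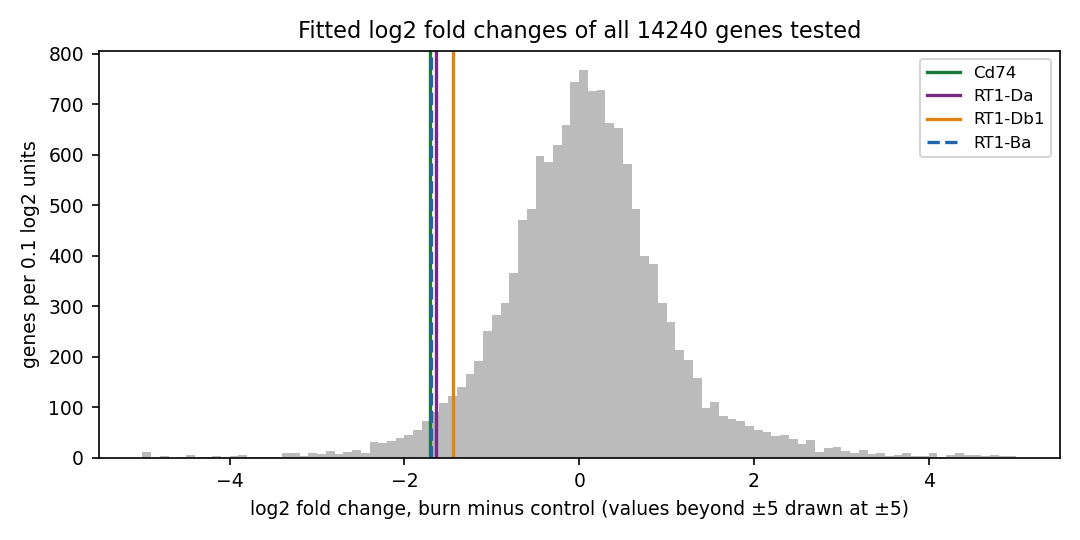
Number of genes (vertical axis, per 0.1 log2 units) at each fitted log2 fold change, burn minus control (horizontal axis), for the 14240 genes tested, with lines at the 4 transcripts. The lines lie close together in the lower tail, between -1.71 and -1.44, and the lines of Cd74 and RT1-Ba nearly coincide.

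The 4 fold changes spanned 0.27 log2 units, less than the SE of each of them. Between 3.02% and 4.97% of all genes tested had a lower fitted log2 fold change than a given one of the 4, so they were in the lower tail without being at its end. Without burn replicate 3 the log2 fold changes were -1.53 for Cd74, -1.40 for RT1-Da, -1.44 for RT1-Db1 and -1.49 for RT1-Ba, and all 4 passed the edgeR threshold, with adjusted p of 0.0173, 0.0233, 0.0219 and 0.0449. Scaling by library size alone, without TMM, moved the median of all genes from 0.06 to -0.15 and the calls from 1689 higher and 1426 lower to 894 and 2138. Relative to the median of each scaling, the log2 fold change was -1.78 with TMM and -1.84 without it for Cd74, -1.70 and -1.78 for RT1-Da, -1.51 and -1.50 for RT1-Db1, and -1.76 and -1.83 for RT1-Ba.

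**Figure D3:**
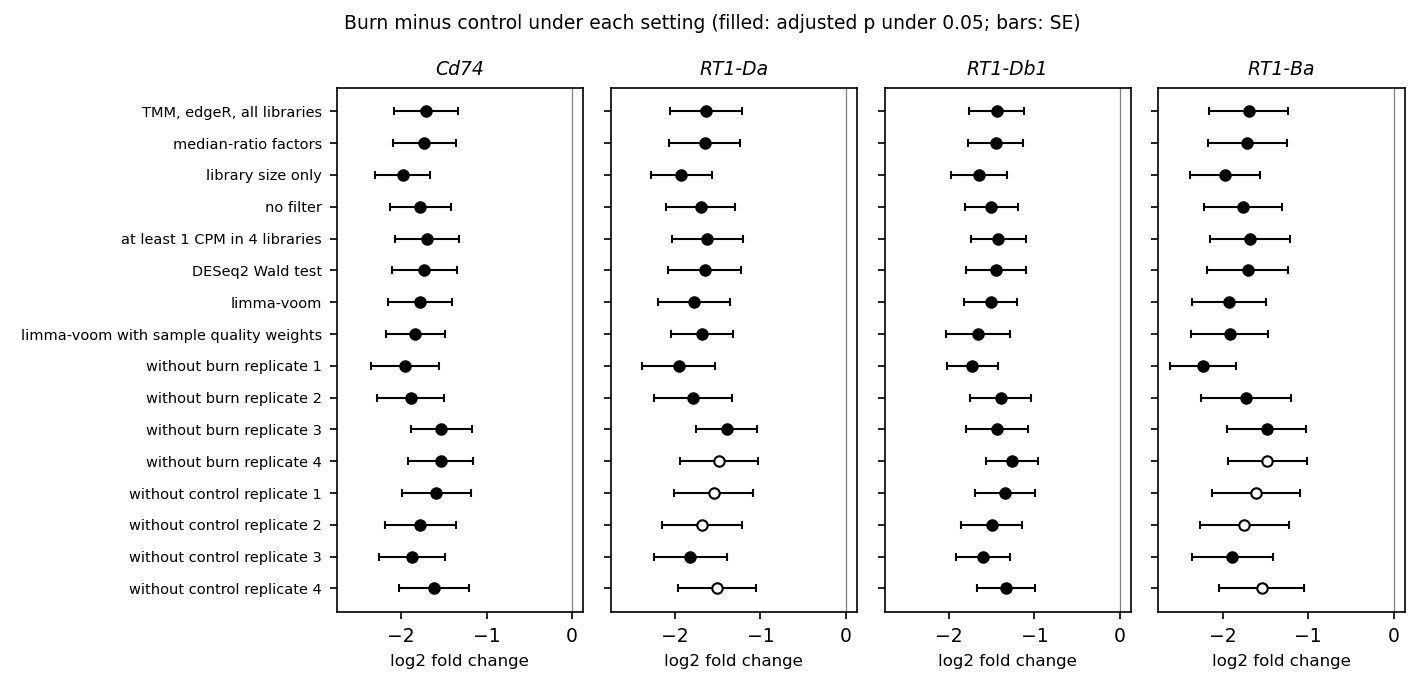
Log2 fold change, burn minus control (horizontal axis), of each transcript under each setting (rows), with bars for the SE and filled points where the adjusted p was under 0.05. All points lie below 0, and open points appear for RT1-Da and RT1-Ba alone, in the refits without burn replicate 4 or control replicate 1, 2 or 4.

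Together the 4 transcripts made up 0.101% ± 0.0261 of all counts in control and 0.0261% ± 0.0100 in burn (SD, n = 4). This sum follows Cd74, which gave 57.2% to 63.7% of it in each library, and it was not tested.

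The libraries of a group were ordered much alike by the 4 genes. In control, replicates 1 and 4 lay above the group mean of log2 CPM and replicates 2 and 3 below it for all 4 genes. Control replicate 3 was the lowest for each gene, with deviations from the mean of -0.68 to -0.56 log2 units. Of the 6 pairs of control libraries 5 were ordered the same way by all 4 genes, and only replicates 1 and 4 changed places, with Cd74 higher in replicate 1 and the 3 class II chains higher in replicate 4. In burn, replicate 1 lay above the mean for all 4 genes, by 0.68 to 1.18 log2 units, and replicate 4 below it for all 4, with deviations of -0.77 to -0.42. Of the 6 pairs of burn libraries 4 were ordered alike by all 4 genes, and 5 when RT1-Db1 was left aside.

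Both pairs of burn libraries that the 4 genes did not order alike included replicate 3. Replicate 2 was above replicate 3 for Cd74, RT1-Da and RT1-Ba and below it for RT1-Db1. Replicate 4 was above replicate 3 for Cd74 and RT1-Da and below it for RT1-Db1 and RT1-Ba, by a small margin for Cd74, at 106.5 against 104.5 CPM, and for RT1-Ba, at 15.2 against 15.7 CPM. Against the group mean, replicate 2 was above the mean for Cd74, RT1-Da and RT1-Ba and just below it for RT1-Db1, with a deviation of -0.08 log2 units. Replicate 3 deviated by -0.63 log2 units for Cd74, -0.99 for RT1-Da and -0.72 for RT1-Ba, but by 0.06 for RT1-Db1.

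Ratios between the transcripts within a library show the same, and in them library scaling cancels. In control the 6 log2 ratios had SDs of 0.04 to 0.12, although the levels themselves had SDs of 0.43 to 0.50 log2 units (n = 4). The log2 ratio of Cd74 to RT1-Db1 was 3.46, 3.39, 3.41 and 3.37 in control replicates 1 to 4. The ratio to Cd74 was taken for 12192 other genes with a mean log2 CPM of at least 1, with RT1-Da, RT1-Db1 and RT1-Ba included. Over the control libraries only 1 of the 12192 kept a steadier ratio to Cd74 than RT1-Db1. The count was 9 for RT1-Da and 43 for RT1-Ba, and these counts include other members. The median SD of this ratio over the 12192 genes was 0.48. Counting error alone gives RT1-Db1 a coefficient of variation of 2.31% to 3.71% in the control libraries, about the size of the spread of its ratio to Cd74. Its rank therefore cannot be read finely. Genes with few counts have more counting error, so the ranks also depend partly on abundance. This way of ranking was chosen after the data were seen and is a description of 4 libraries.

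**Figure D4:**
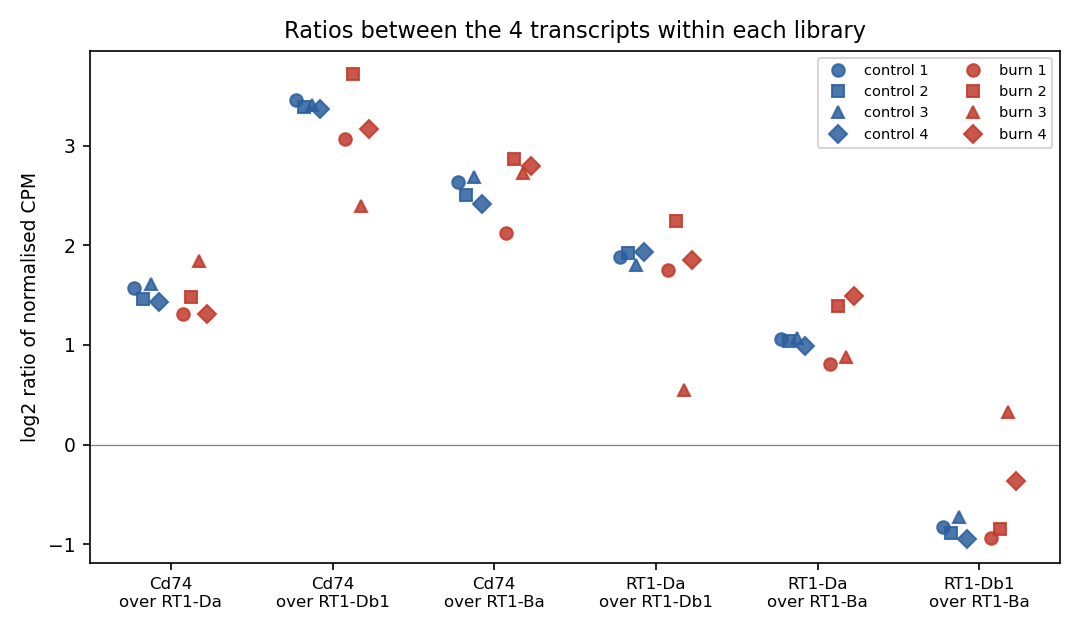
Log2 ratio of normalised CPM (vertical axis) for each pair of transcripts, 1 point per library, blue for control and red for burn, with a marker shape for each replicate number. The control points cluster within 0.09 to 0.26 log2 units for each pair, and the burn points spread over 0.54 to 1.69. Burn replicate 3 lies apart in the pairs with RT1-Db1 and in Cd74 over RT1-Da.

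In burn the same ratios were looser, with SDs of 0.25 to 0.73 (n = 4), and each of the 6 was more spread in burn than in control. The log2 ratio of RT1-Da to RT1-Db1 was 1.88, 1.93, 1.80 and 1.94 in control replicates 1 to 4 and 1.75, 2.24, 0.55 and 1.86 in burn replicates 1 to 4. Burn replicate 3 set most of that spread, since the SD in burn was 0.73 with it and 0.26 without it. Its part differed between ratios. The SD of RT1-Da over RT1-Ba was 0.35 with it and 0.37 without it, against 0.04 in control. That of Cd74 over RT1-Ba was 0.34 and 0.41, against 0.12. For Cd74 over RT1-Da the SD was 0.25 with it and 0.10 without it, close to the 0.09 in control. For Cd74 over RT1-Db1 it was 0.54 and 0.35, against 0.04, and for RT1-Db1 over RT1-Ba 0.58 and 0.31, against 0.09. The genes tested as a whole were also more variable in burn, with a median SD of 0.52 log2 units against 0.25 in control. The ratio of a gene to Cd74 had a median SD of 0.84 in burn. In burn 26 of the 12192 genes kept a steadier ratio to Cd74 than RT1-Da did, 1088 did so for RT1-Db1 and 122 for RT1-Ba. Without burn replicate 3 these counts were 12, 298 and 494.

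None of the 6 ratios separated the groups, with 0 of 6 free of overlap. The mean log2 ratio, burn minus control, ranged from -0.32 for Cd74 over RT1-Db1 to 0.39 for RT1-Db1 over RT1-Ba, and was -0.03 for Cd74 over RT1-Da. These differences are smaller than the SDs of the same ratios in burn, 0.54, 0.58 and 0.25. The first and second rest on burn replicate 3, and without it they were -0.09 and 0.13, while Cd74 over RT1-Da was -0.15. RT1-Da over RT1-Db1 turned from -0.29 to 0.06 when that library was left out. No test was made of these ratios.

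Genes outside the 4 were ranked by how closely they followed them, as the mean Pearson correlation with the 4 of log2 CPM after each group mean was subtracted, over 8 libraries and 12189 genes. Among the 4 themselves this correlation ran from 0.67 for RT1-Da with RT1-Db1 to 0.97 for Cd74 with RT1-Da. Without burn replicate 3 the correlation of RT1-Da with RT1-Db1 was 0.95, and all 6 lay between 0.92 and 0.99 over 7 libraries. The closest were ENSRNOG00000002491, with a mean of 0.917, and ENSRNOG00000012807, with 0.912. Neither has a name in the files. Without burn replicate 3 their means were 0.953 and 0.943, and 4 and 10 other genes had higher ones. The genes closest over 8 libraries did not share one response to the burn. ENSRNOG00000012807 had a log2 fold change of -3.46 with an SE of 0.37 (adjusted p = 0.00217 by edgeR), at 45.7 to 85.4 CPM in the control libraries and 3.55 to 9.90 in the burn libraries. ENSRNOG00000002491 had one of 0.07 with an SE of 0.50 (adjusted p = 0.936 by edgeR), at 1.33 to 2.54 CPM in control and 1.02 to 3.74 in burn. Its mean log2 CPM, 1.10 in control and 1.00 in burn, was close to the least mean of 1 required of these genes.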

How the data were processed

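The deposited table gives raw counts of reads for each Ensembl rat gene, in a column for each library, as its whole-number values and unequal column totals show. Per the submitters' processing notes, TopHat2 2.0.9, HTSeq 0.5.4p3, edgeR, R 3.0.1, limma and the build Rnor_5.0 were used. The sources used here do not give their roles, the annotation release or the strandedness, and reads of overlapping or near-identical genes could not be told apart.

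Groups came from the treatment label. Replicate numbers were given in accession order and pair nothing. The smallest chi-square per degree of freedom between libraries of a group was 23.7, so none was a repeat deposit. The whole table was fitted with edgeR 4.0.16 in R 4.3.3 (TMM, default expression filter, robust quasi-likelihood test, group alone), with two-sided p-values adjusted by Benjamini-Hochberg over 14240 genes and a threshold of 0.05. The SE is the log2 fold change divided by the square root of F. Log2 CPM used a prior count of 2. Alternatives used other scaling, other filters, DESeq2 1.42.0, limma 3.58.1 and leaving out each library. The procedure was tested on simulated data. The genes named were the 4 members and the 2 most like them. The members and lists were chosen with earlier results of these data known. The list of class II pathway genes and the cell type markers were not analysed here, for want of matched identifiers.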

Additional observations from a re-analysis of the deposited data

Results flagged for a closer look

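The levels of the 4 transcripts, their 6 ratios and their summed share were screened in each group for 1 library far from the other 3. None of the 22 sets of 4 libraries had one by Dixon's test, in which chance picks about 1 set in 20. With 4 values only a very wide gap is picked, and the sets share genes and libraries. The result thus does not show that no library stood apart.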

How the results depend on the processing

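The 4 log2 fold changes stayed below 0 under all 15 alternatives, and Cd74 and RT1-Db1 kept their calls in each, with adjusted p over edgeR, limma and DESeq2 of 7.92e-05 to 0.0471 and 0.000329 to 0.0495. RT1-Da and RT1-Ba kept theirs under every alternative that used all 8 libraries and lost them in 4 of the 8 refits without 1 library, with adjusted p of 0.000901 to 0.0692 and 0.00206 to 0.0833 over all alternatives. Those refits gave log2 fold changes of -1.96 (without burn replicate 1) to -1.40 (without burn replicate 3) for RT1-Da and -2.24 to -1.48 for RT1-Ba, with fewer samples in each. With library size alone 894 genes were called higher and 2138 lower, and DESeq2 called 2379 higher and 2203 lower, and the cause was not tested. When 1 library was left out, 673 to 2314 genes were called higher and 546 to 1929 lower, the fewest without control replicate 2 and the most without burn replicate 3. Under all 9 alternatives run on each, the 6 ratios and the summed share moved by less than 1 SD, taken as the root mean of the variances of both groups. That SD is wider than the SD in control for each ratio and than the SD in burn for the share. Leaving out 1 of 4 libraries cannot move a difference of means by 1 such SD. For the 8 refits without 1 library this outcome was thus fixed in advance, and it shows no stability. Of the ratio differences, 4 changed sign, that of RT1-Da to RT1-Db1 from -0.29 to 0.06 without burn replicate 3, Cd74 to RT1-Da from -0.03 to 0.02 and 0.03 without burn replicate 1 or 4, Cd74 to RT1-Ba from 0.07 to -0.01 without burn replicate 2, and RT1-Da to RT1-Ba from 0.11 to -0.01 without burn replicate 4. No paired analysis was possible because the labels give no animal number. Counting error was small beside the fold changes of these transcripts, whose precision is limited by the number of libraries. In control it was about the size of the spread of the steadiest ratios, Cd74 to RT1-Db1 and RT1-Da to RT1-Ba.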
